A study of Mus musculus with 8 samples.

Results

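The core of the LIF receptor and STAT3 pathway was followed through 7 genes in mouse embryonic stem cells: the receptor genes Lifr and Il6st, the kinase gene Jak1, the transcription factor gene Stat3, the feedback inhibitor gene Socs3 and the kinase genes Pim1 and Pim3. They were taken by name. All 7 had values, among 17488 genes with values of 48321 listed, and all 7 were among the 13959 genes tested. RNA came from E14 cells of strain 129/Ola in 8 libraries, 2 in each of 4 groups. The GSK3β line lacks the endogenous gene of the kinase GSK3β and carries a transgene of the mutant GSK3Beta-L132G; it was treated with 5 µM 3MB-PP1 for 2 h or left untreated. The GSK3α line lacks the endogenous gene of the paralog GSK3α and carries GSK3alpha-L195G; it was likewise treated or left untreated. These mutants are of the analog-sensitive kind, in which the ATP pocket is opened to bulky inhibitors such as 3MB-PP1, and in each line the other paralog was not altered according to the genotype. All 4 groups spent 6 h without serum in N2B27 medium, and the labels name no LIF for that step, no vehicle for untreated cells and no promoter for either transgene. Each paralog is represented by 1 line, nothing says that the libraries of a group came from separate cultures, and the p-values therefore measure the spread between these libraries, which may be technical.

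LIF is the cytokine that keeps mouse embryonic stem cells in culture from differentiating. It binds LIFR, which pairs with the shared signal transducer gp130, the product of Il6st. The JAK kinases bound to both chains then phosphorylate STAT3, which enters the nucleus and switches on its targets, among them Socs3, whose product blocks the receptor and the kinase. Pim1 and Pim3 encode serine/threonine kinases that are known as STAT3 targets in these cells. GSK3, the kinase that 3MB-PP1 is meant to inhibit here, is best known for marking β-catenin for destruction, and inhibition of GSK3 is used together with LIF to hold cells in the naive state.

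With 3MB-PP1, Il6st rose and Pim3 fell in the GSK3β line, and both changes differed from those in the GSK3α line. Stat3 rose by a small amount in the GSK3β line, a call that depended on single libraries. Pim1 fell in the GSK3α line, a call that ended without either treated library of that line. Socs3 did not pass the test with inhibitor in either line. Between the untreated lines, Socs3 and Il6st were lower and Pim1 and Pim3 higher in the GSK3β line. Lifr and Jak1 passed in none of the 4 comparisons.

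STAT3 binds DNA at the palindrome TTCNNNGAA. All 7 genes matched at least 1 promoter window of RefSeq (GRCm38.p6, the assembly also called mm10, which the submitters' processing notes name), each running from 250 bases before to 50 bases after an annotated RefSeq transcription start, in 9 windows. The motif, which reads alike on both strands, was found in 1 of the 9 windows, that of Socs3, and in 8.3% of 32851 windows of the same length over all genes. The windows of Socs3 (chr11:117969317-117969616, minus strand) and Il6st (chr13:112463820-112464119, plus strand) are shown because, of the 7 genes, Socs3 had the largest log2 difference between the untreated lines and Il6st the largest change with inhibitor. Capitals mark the motif, which begins at base -154 counted from the RefSeq start as 0. In GENCODE M21, Socs3 runs from 117966079 to 117970047 on the minus strand. The Socs3 window and its motif thus lie inside that gene, downstream of the GENCODE start. The same holds for the Lifr windows that begin at 7129322 and 7140292 and for the Pim1 window that begins at 29492835. Those windows do not cover the GENCODE starts of their genes.
Socs3: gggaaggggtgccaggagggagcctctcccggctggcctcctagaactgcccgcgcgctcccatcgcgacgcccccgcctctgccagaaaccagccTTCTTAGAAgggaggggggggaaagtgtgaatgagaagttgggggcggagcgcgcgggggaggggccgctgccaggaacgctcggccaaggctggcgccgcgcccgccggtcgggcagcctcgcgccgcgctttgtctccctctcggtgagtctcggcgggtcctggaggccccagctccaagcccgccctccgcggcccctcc
Il6st: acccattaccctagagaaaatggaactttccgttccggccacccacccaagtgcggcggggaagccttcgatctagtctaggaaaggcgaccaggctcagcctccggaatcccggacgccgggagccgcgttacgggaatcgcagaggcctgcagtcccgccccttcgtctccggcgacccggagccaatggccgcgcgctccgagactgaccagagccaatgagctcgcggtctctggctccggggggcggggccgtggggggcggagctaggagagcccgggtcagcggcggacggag
No match says only that these letters are absent from the window.

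The deposited values are gene counts estimated and scaled by the authors, in arbitrary units that are not divided by gene length, so levels are compared between libraries and not between genes. The smallest value of each library was taken as 1 read, which gave an estimate of 21.5 to 32.4 M reads per library assigned to genes. On that scale the 7 genes rested on 232 reads (Socs3) to 4040 reads (Pim1) in a library, and the counting error alone, as a coefficient of variation, would be about 6.57% at the lowest Socs3 value and 2.15% at the lowest Pim1 value. As a check of the lines, Gsk3b had 258 and 249 with 3MB-PP1 and 235 and 256 untreated in the GSK3β line, against 52.7 and 55.3 with 3MB-PP1 and 58.2 and 54.7 untreated in the GSK3α line. Gsk3a had 77.6 and 79.9 with 3MB-PP1 and 77.9 and 76.2 untreated in the GSK3β line, against 141 and 142 with 3MB-PP1 and 155 and 160 untreated in the GSK3α line. Each line thus held more RNA of its own transgene's paralog, and gene totals do not separate transgene RNA from RNA of the disrupted allele. All 8 pluripotent cell markers had values and their sum ran from 4705 to 4930 over the libraries. With 3MB-PP1 in the GSK3β line 5 of the 8 passed, Esrrb (log2 0.22) and Nanog (0.14) higher and Tdgf1 (-0.24), Dppa4 (-0.20) and Utf1 (-0.20) lower, so the level of single markers changed in both directions under a sum of narrow range. Among fibroblast markers 4 of 8 had values, with sums of 15.2 to 15.4 with 3MB-PP1 and 14.03 to 16.1 untreated in the GSK3β line, and of 12.5 to 13.3 with 3MB-PP1 and 11.3 to 11.6 untreated in the GSK3α line, and Col3a1, Dcn, Lum and Postn had none. Thy1 made up most of these sums, with untreated means of 11.6 in the GSK3β line and 7.65 in the GSK3α line. Untreated means of Col1a1 (1.58 against 1.67) and Pdgfrb (1.57 against 1.92) were lower in the GSK3β line, and that of Col1a2 (0.294 against 0.219) higher. For primitive endoderm 6 of 8 had values, with sums of 10.7 to 10.9 with 3MB-PP1 and 10.3 to 10.8 untreated in the GSK3β line, and of 11.6 to 12.1 with 3MB-PP1 and 11.3 to 11.4 untreated in the GSK3α line, and Foxa2 and Afp had none. Trophoblast markers, 7 of 8 with values, summed to 118 and 123 in the GSK3β line with 3MB-PP1 against 94.9 and 102 untreated, and to 105 and 107 with 3MB-PP1 against 104 and 105 untreated in the GSK3α line. Of these, 6 were tested and 1 passed in the GSK3β line, Tfap2c, which rose (log2 0.85 ± 0.08, SE, adjusted p = 2.21e-07). Tfap2c averaged 46.6 with 3MB-PP1 against 25.5 untreated there, so most of the rise of the sum lay in this gene. In the GSK3α line Tfap2c averaged 43.2 with 3MB-PP1 and 44.5 untreated. Between the untreated lines it was lower in the GSK3β line (log2 -0.79 ± 0.08, SE, adjusted p = 8.17e-08). Its rise in the GSK3β line thus started from a low level and ended near the level of the GSK3α line. Without passing, Eomes (log2 0.19) and Hand1 (0.19) were higher with 3MB-PP1 in the GSK3β line, and Krt8 (-0.11), Krt18 (-0.03) and Ascl2 (-0.03) lower. Elf5 had no values, and Cdx2 fell below the filter on the mean over all libraries and was not tested. Cdx2 had 2.43 and 3.27 in the GSK3β line with 3MB-PP1 against 0.195 and 0.321 untreated, and 0.515 and 0.507 with 3MB-PP1 against 0.400 and 0.298 untreated in the GSK3α line. Its treated libraries in the GSK3β line thus stood above the other 6, in the group where Il6st was highest and Pim3 lowest. The part of these markers in the results was not tested.

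**Figure D1:**
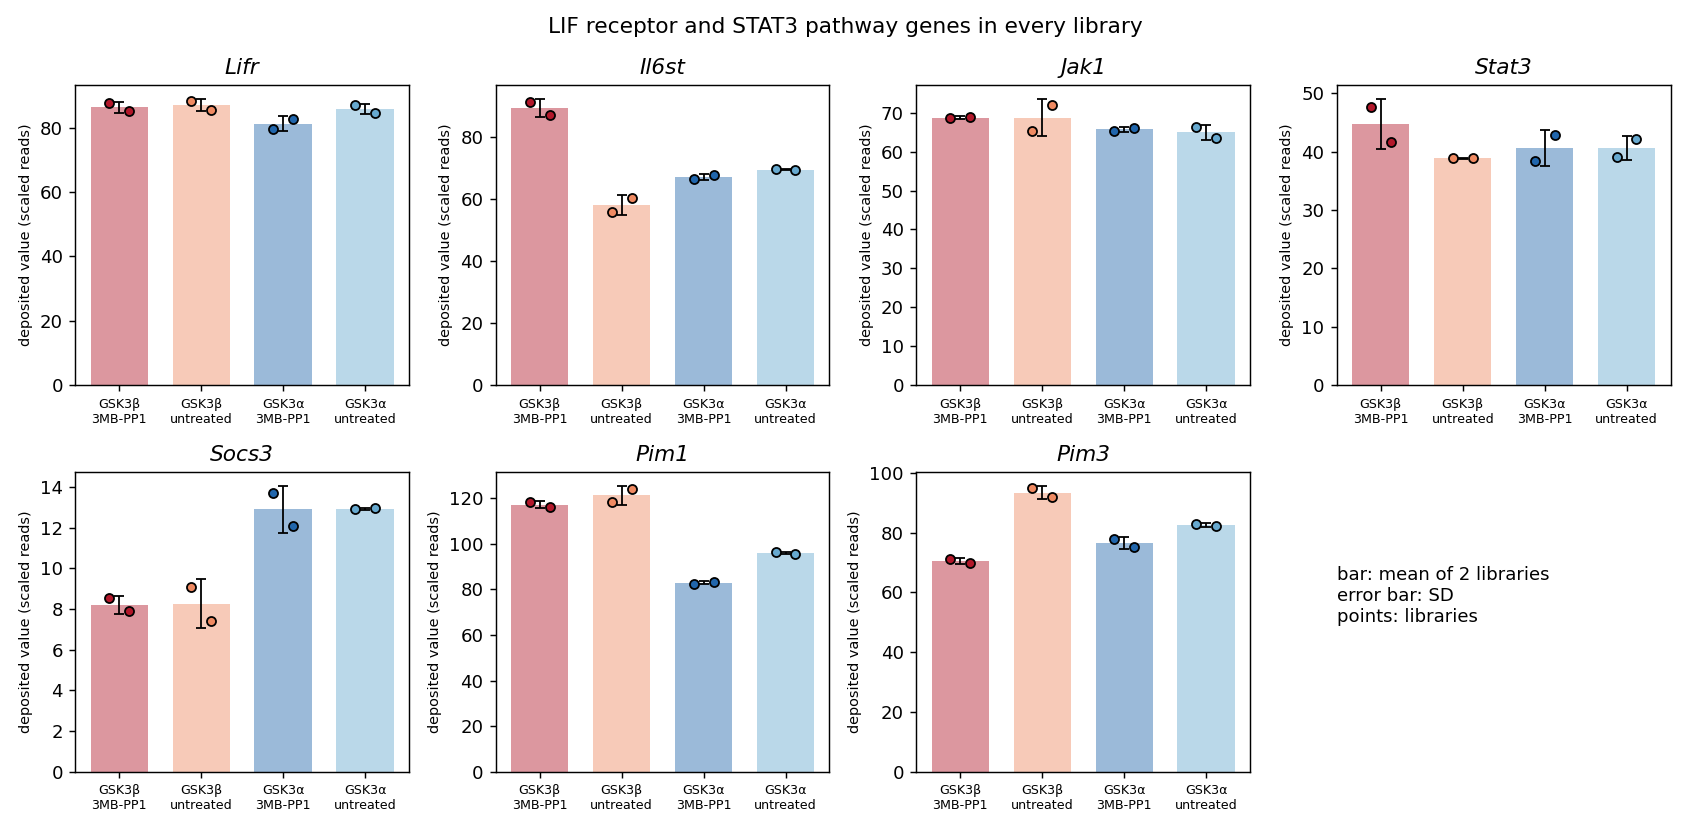
Deposited values (scaled reads, linear axis from 0) of the 7 genes in the 4 groups. Bars are means of 2 libraries, error bars are SD and points are libraries. Il6st reaches 91.4 and 87.2 in the GSK3β line with 3MB-PP1, above all other libraries, while Socs3 separates the lines and not the treatments.

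Lifr (chromosome 15, 7090614 to 7197489, plus strand; mm10 coordinates of GENCODE M21 here and below) encodes the receptor chain that binds LIF. Its values were 87.6 and 85.0 in the GSK3β line with 3MB-PP1 and 88.3 and 85.6 in the same line untreated. In the GSK3α line they were 79.7 and 82.9 with 3MB-PP1 and 87.0 and 84.6 untreated. Treated and untreated libraries overlapped in the GSK3β line, whereas in the GSK3α line the treated pair lay below the untreated pair and was the lowest of all. The highest library was 1.11 times the lowest. The log2 change with inhibitor was -0.01 ± 0.04 (SE) in the GSK3β line (95% interval -0.09 to 0.07, adjusted p = 0.891) and -0.08 ± 0.04 in the GSK3α line (-0.16 to 0.00, adjusted p = 0.429).

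Il6st (chromosome 13, 112464070 to 112510086, plus strand) encodes gp130, the chain shared by the receptors of the IL-6 family. Its values were 91.4 and 87.2 in the GSK3β line with 3MB-PP1, against 55.9 and 60.4 in that line untreated. The GSK3α line had 66.6 and 67.8 with 3MB-PP1 against 69.7 and 69.5 untreated. The treated libraries of the GSK3β line were the highest of all 8 and its untreated libraries the lowest of all, with the GSK3α line between them. In the GSK3β line it averaged 89.3 ± 2.94 (SD, n = 2) with 3MB-PP1 and 58.1 ± 3.18 untreated, a log2 change of 0.61 ± 0.04 (SE, adjusted p = 7.09e-09), or 1.53-fold. In bulk RNA, more RNA per cell and more cells that hold it cannot be told apart. By p-value this was the 31st of 13959 tested genes in that comparison, and by size the 126th. The change in the GSK3α line was -0.05 ± 0.04 on the log2 scale (adjusted p = 0.694, 95% interval -0.14 to 0.04). The difference of the changes, GSK3β line minus GSK3α line, was 0.66 ± 0.06 on the log2 scale (adjusted p = 9.89e-07). Without inhibitor the level was lower in the GSK3β line than in the GSK3α line, by a log2 difference of -0.26 ± 0.04 (adjusted p = 6.23e-05).

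Jak1 (chromosome 4, 101152367 to 101265282, minus strand) encodes the JAK kinase that gp130 needs most. It had 68.6 and 69.0 in the GSK3β line with 3MB-PP1 and 65.4 and 72.1 in that line untreated. The GSK3α line had 65.3 and 66.1 with 3MB-PP1 and 66.2 and 63.6 untreated. These groups overlapped within each line and between the untreated lines. Log2 changes with inhibitor were 0.00 ± 0.04 (SE) in the GSK3β line (95% interval -0.09 to 0.10) and 0.02 ± 0.04 in the GSK3α line (-0.08 to 0.11). The untreated GSK3β line against the untreated GSK3α line gave a log2 difference of 0.08 (adjusted p = 0.149). That difference passed without untreated replicate 1 of the GSK3β line (log2 0.15, adjusted p = 0.0133) and with libraries scaled to equal sums (0.13, adjusted p = 0.0250). Exons of Raver2 lie on the opposite strand over Jak1, and the files state no strand setting, so reads in the overlap cannot be told apart. Raver2 ran from 21.4 to 27.7 over the libraries.

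Stat3 (chromosome 11, 100885098 to 100939540, minus strand) encodes the transcription factor that the receptor activates. It had 47.7 and 41.6 in the GSK3β line with 3MB-PP1, against 38.8 and 39.0 in that line untreated. Cells of the GSK3α line had 38.4 and 42.8 with 3MB-PP1 against 39.1 and 42.1 untreated. The treated libraries of the GSK3β line lay above its untreated libraries, but 1 of them was below the highest libraries of the GSK3α line. The log2 change in the GSK3β line was 0.19 ± 0.06 (SE, adjusted p = 0.0410), and in the GSK3α line it was 0.00 ± 0.06 (95% interval -0.13 to 0.13). The call in the GSK3β line ended without its 3MB-PP1 replicate 1, where the log2 change was 0.10 (adjusted p = 0.503). It ended too without untreated replicate 1 (0.19, adjusted p = 0.131) or 2 (0.19, adjusted p = 0.0781), and with a spread not tied to the mean level (adjusted p = 0.203). The difference of the changes between the lines, 0.19 ± 0.09 on the log2 scale, did not pass (adjusted p = 0.207). Stat5a overlaps Stat3 with exons on the opposite strand, where reads likewise cannot be told apart, and ran from 5.68 to 8.21 over the libraries.

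Socs3 (chromosome 11, 117966079 to 117970047, minus strand) encodes the inhibitor that STAT3 induces and that binds gp130 and the JAK kinases. Its values were 8.53 and 7.90 in the GSK3β line with 3MB-PP1 and 9.11 and 7.44 in that line untreated. For the GSK3α line they were 13.7 and 12.1 with 3MB-PP1 and 12.9 and 12.97 untreated. All 4 libraries of the GSK3β line lay below all 4 of the GSK3α line, and treated and untreated libraries overlapped within each line. The untreated GSK3β line averaged 8.27 ± 1.18 (SD, n = 2) and the untreated GSK3α line 12.9 ± 0.05. The log2 difference was -0.59 ± 0.09 (SE, adjusted p = 3.79e-05), or 0.663-fold with 1 added to each value. Socs3 had the widest span of the 7 genes, with the highest library at 1.84 times the lowest. The log2 change with inhibitor was 0.00 ± 0.09 in the GSK3β line and -0.01 ± 0.09 in the GSK3α line, with 95% intervals of -0.20 to 0.19 in each (adjusted p = 0.982 in the GSK3β line and 0.990 in the GSK3α line). Its level was the lowest of the 7 in estimated reads, and the intervals are the widest.

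Pim1 (chromosome 17, 29490753 to 29496112, plus strand) encodes a kinase that promotes survival and growth. It had 118 and 116 in the GSK3β line with 3MB-PP1 and 118 and 124 in that line untreated. The GSK3α line had 82.4 and 83.3 with 3MB-PP1 against 96.3 and 95.5 untreated. The GSK3β line lay above the GSK3α line in every library, and only in the GSK3α line were treated and untreated libraries apart. There it averaged 82.9 ± 0.62 (SD, n = 2) with 3MB-PP1 and 95.9 ± 0.52 untreated, a log2 change of -0.21 ± 0.04 (SE, adjusted p = 0.00563). The call ended without either 3MB-PP1 library of the GSK3α line, replicate 1 (log2 -0.20, adjusted p = 0.130) or replicate 2 (-0.22, adjusted p = 0.0737), and with a spread not tied to the mean level (adjusted p = 0.224). In the GSK3β line the log2 change was -0.05 ± 0.04 (95% interval -0.12 to 0.03, adjusted p = 0.399). The difference of the changes, GSK3β line minus GSK3α line, was 0.16 ± 0.05 on the log2 scale and did not pass (adjusted p = 0.0618), whereas it passed without untreated replicate 2 of the GSK3β line (0.19, adjusted p = 0.0216) and with median ratio scaling (0.17, adjusted p = 0.0421). Between the untreated lines Pim1 was higher in the GSK3β line, by 0.33 ± 0.04 on the log2 scale (adjusted p = 2.87e-07). The antisense gene Gm26885 overlaps its exons and stayed at or under 0.623 in every library.

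Pim3 (chromosome 15, 88862186 to 88865726, plus strand) encodes a paralog of PIM1. It had 71.2 and 69.9 in the GSK3β line with 3MB-PP1, against 94.95 and 91.8 in that line untreated. Values in the GSK3α line were 77.9 and 75.2 with 3MB-PP1 against 83.0 and 82.1 untreated. Treated libraries lay below untreated ones in both lines, with the wider gap in the GSK3β line, which held both the lowest and the highest libraries. In the GSK3β line the log2 change was -0.40 ± 0.04 (SE, adjusted p = 4.05e-07), or 0.758-fold. The GSK3α line gave -0.11 ± 0.04, which did not pass (adjusted p = 0.226, 95% interval -0.19 to -0.03). The difference of the changes, GSK3β line minus GSK3α line, was -0.29 ± 0.05 on the log2 scale (adjusted p = 0.00193), and it did not pass with a spread not tied to the mean level (adjusted p = 0.0792). The untreated GSK3β line was higher than the untreated GSK3α line by 0.17 ± 0.04 on the log2 scale (adjusted p = 0.000735).

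In counts, 3 of the 7 genes passed with inhibitor in the GSK3β line, Il6st and Stat3 higher and Pim3 lower, where 14.9% of all tested genes passed, 7.49% higher and 7.44% lower. In the GSK3α line 1 of 7 passed, Pim1, lower, where 0.881% of all tested genes did, 0.265% higher and 0.616% lower. The difference of the changes passed for 2 of 7, Il6st and Pim3, beside 6.53% of all genes, 3.62% higher and 2.90% lower. Between the untreated lines 4 of 7 passed, near the 48.2% of all genes (22.3% higher and 25.9% lower), with Pim1 and Pim3 higher and Il6st and Socs3 lower in the GSK3β line. The median log2 change of the 7 genes was 0.00 in the GSK3β line and -0.05 in the GSK3α line, beside -0.01 in the GSK3β line and 0.01 in the GSK3α line over all tested genes. The difference between the lines uses the same libraries as the comparisons within the lines, and the untreated libraries of a line serve in every comparison that involves that line.

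**Figure D2:**
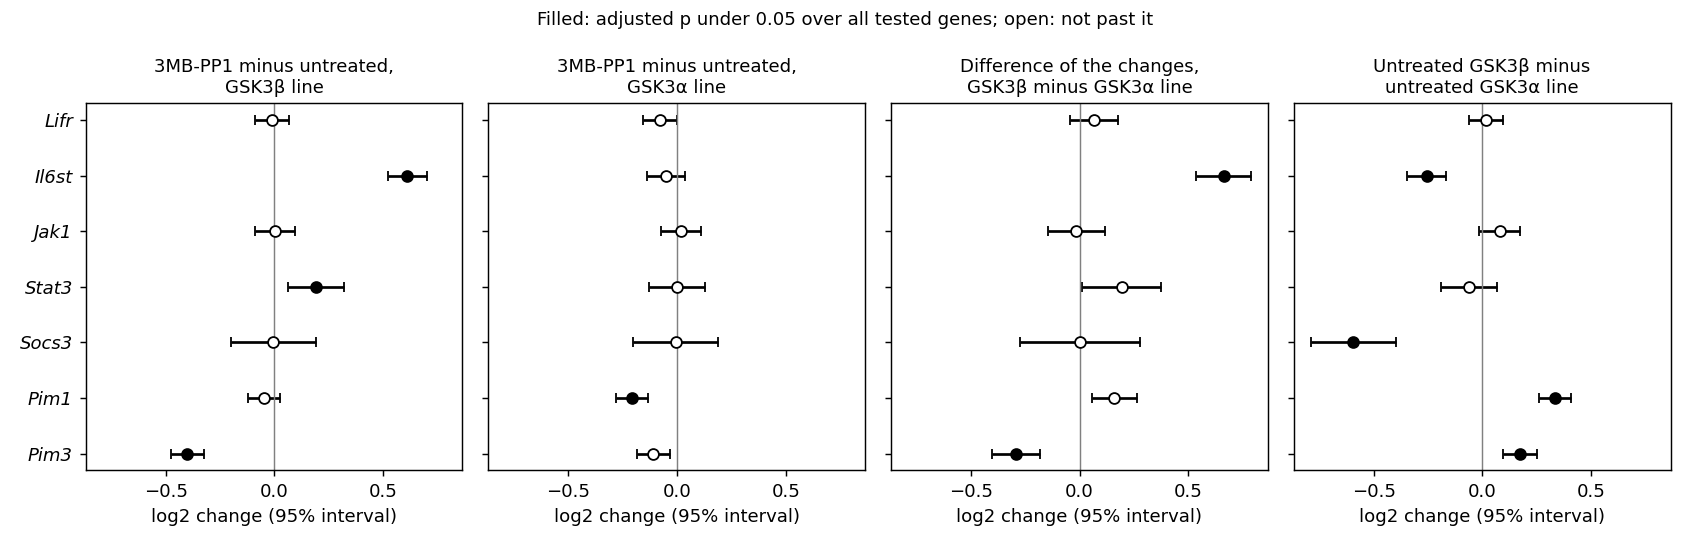
Log2 changes of the 7 genes with 95% intervals in the 4 comparisons, on the scale log2(value + 1); filled points passed the test over all tested genes. Il6st stands at 0.61 and Pim3 at -0.40 in the GSK3β line, and Socs3 at -0.59 between the untreated lines.

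The rest of the pathway was read from 7 lists of 65 genes, of which 59 had values and 54 were tested. With 3MB-PP1, 7 of the 54 rose and 8 fell in the GSK3β line, and 1 rose and 1 fell in the GSK3α line, beside 14.9% of all tested genes passing in the GSK3β line and 0.881% in the GSK3α line. The difference of the changes passed for 11, beside 6.53% of all genes, and 31 passed between the untreated lines, beside 48.2%. Their median log2 change was 0.00 in the GSK3β line and -0.01 in the GSK3α line.

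Of the ligands, Lif, Osm and Ctf1 were among those tested, and Il6, Il11 and Il27 had no values. Lif itself had 7.48 and 8.33 in the GSK3β line with 3MB-PP1 and 7.19 and 7.12 untreated, and 8.09 and 8.48 with 3MB-PP1 and 7.52 and 7.10 untreated in the GSK3α line. Its log2 changes of 0.13 in the GSK3β line (adjusted p = 0.386) and 0.16 in the GSK3α line (adjusted p = 0.506) did not pass. Treated libraries lay above untreated ones in both lines, which with 2 libraries a group says little by itself. Osm, the gene of oncostatin M, a related cytokine, rose in the GSK3β line, with 2.94 and 3.36 with 3MB-PP1 against 1.37 and 1.15 untreated (log2 0.88 ± 0.14, SE, adjusted p = 0.000189). Osm had 1.03 and 0.98 with 3MB-PP1 against 0.89 and 1.19 untreated in the GSK3α line. These are low levels, and the added 1 understates the fold. Osmr, the gene of its own receptor chain, had no values.

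Among 5 tested receptor genes of the gp130 family, Il6ra rose and Cntfr fell in the GSK3β line, and none passed in the GSK3α line with limma, where 0 of the 5 also passed at an unadjusted p under 0.05. Il6ra, the IL-6 binding chain, had 16.7 and 14.96 with 3MB-PP1 against 10.9 and 11.5 untreated (log2 0.46 ± 0.07, SE, adjusted p = 0.000237). Cntfr, which binds ciliary neurotrophic factor, had 19.8 and 20.9 with 3MB-PP1 against 25.8 and 24.7 untreated (log2 -0.30 ± 0.06, adjusted p = 0.00291), a call that ended without 3MB-PP1 replicate 1 of the line (-0.26, adjusted p = 0.0673). Of 10 kinase and adaptor genes, the SRC family kinase gene Yes1 rose in the GSK3β line, with 81.3 and 73.7 with 3MB-PP1 against 50.4 and 50.5 untreated (log2 0.61 ± 0.05, adjusted p = 2.22e-08). Jak3, a JAK kinase of lymphoid cells, rose by 0.32 ± 0.06 on the log2 scale (adjusted p = 0.000897), and did not pass with a spread not tied to the mean level (adjusted p = 0.0546). Jak2 and Tyk2, the other JAK kinases that act with gp130, did not pass with inhibitor in either line.

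Of the other STAT genes, Stat2, a factor of interferon signalling, rose in the GSK3α line, with 35.1 and 36.3 with 3MB-PP1 against 29.7 and 27.3 untreated (log2 0.31 ± 0.05, SE, adjusted p = 0.00563). That call ended without untreated replicate 2 of the line (0.26, adjusted p = 0.0709) and without 3MB-PP1 replicate 1 (0.34, adjusted p = 0.0736) or 2 (0.29, adjusted p = 0.101). With a spread not tied to the mean level it did not pass either (adjusted p = 0.218). Of 14 tested inhibitors of JAK and STAT, Socs2 (log2 -0.19, adjusted p = 0.00486) and the PIAS family gene Pias1 (-0.23, adjusted p = 0.0177) fell in the GSK3β line. Without 3MB-PP1 replicate 1 of that line neither passed (Socs2 -0.18, adjusted p = 0.0622; Pias1 -0.15, adjusted p = 0.279), and Pias1 did not pass without untreated replicate 2 (-0.20, adjusted p = 0.0711) or with a spread not tied to the mean level (adjusted p = 0.0859). Pim2, the third PIM kinase gene, had log2 changes of -0.10 in the GSK3β line and -0.06 in the GSK3α line, neither of which passed.

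The 14 further genes known as STAT3 targets in these cells did not move one way. In the GSK3β line 3 rose, the transcription factor genes Tfcp2l1 (log2 0.72 ± 0.04, SE), Klf4 (0.59 ± 0.03) and Klf5 (0.35 ± 0.05). Bcl6 lay just outside the threshold (0.39 ± 0.13, adjusted p = 0.0513), with 3.72 and 2.93 with 3MB-PP1 against 2.50 and 2.08 untreated, and passed in 5 of the 17 alternative settings that tested it (adjusted p 0.0366 to 0.0494 in those). A further 5 of the 14 fell in the GSK3β line. These were Myc (-0.86 ± 0.07), Zfp36, which encodes a protein that destabilises mRNA (-0.64 ± 0.11), the transcription factor genes Cebpd (-0.57 ± 0.10) and Junb (-0.52 ± 0.08), and the survival gene Mcl1 (-0.31 ± 0.03). Klf5 had 86.9 and 79.1 with 3MB-PP1 against 61.3 and 68.2 untreated in the GSK3β line, and 75.1 and 79.1 with 3MB-PP1 against 88.5 and 90.5 untreated in the GSK3α line. Its change in the GSK3α line, -0.21 on the log2 scale, lay just outside the threshold (adjusted p = 0.0518) and passed in 8 of the 18 alternative settings (adjusted p 0.00494 to 0.0433 in those). In the GSK3α line 1 of the 14 fell, Myc (-0.48 ± 0.07, adjusted p = 0.00154), a call that ended without 3MB-PP1 replicate 1 of the line (-0.43, adjusted p = 0.0724) and with a spread not tied to the mean level (adjusted p = 0.224). The median log2 change of the 14 was 0.03 in the GSK3β line and -0.09 in the GSK3α line.

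**Figure D3:**
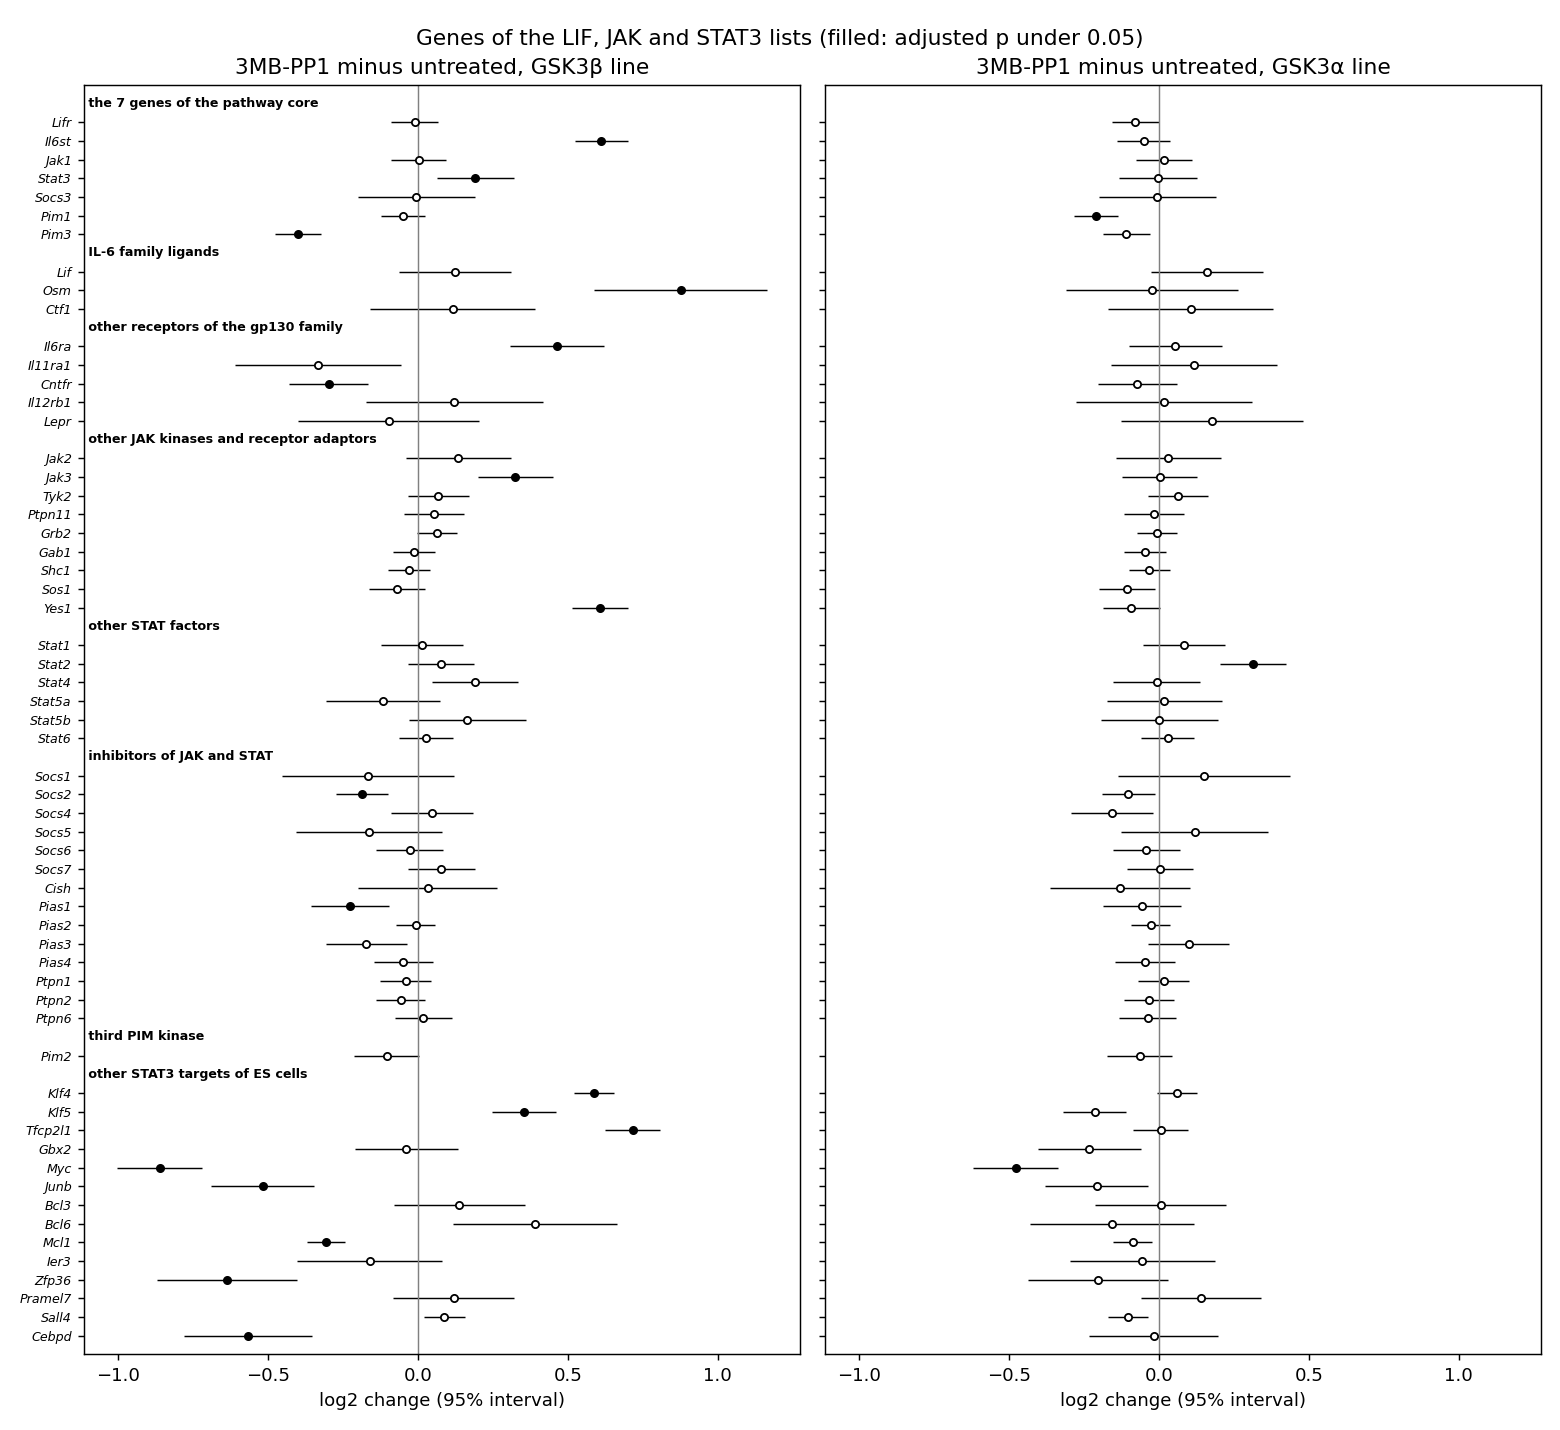
Log2 changes with 3MB-PP1 and 95% intervals for the 7 genes and 52 of the 54 tested genes of the other lists, GSK3β line left and GSK3α line right; filled points passed the test. In the GSK3β line Il6st, Osm, Il6ra, Yes1, Klf4 and Tfcp2l1 stand to the right and Pim3, Myc, Zfp36, Cebpd and Junb to the left.

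Between the untreated lines, several signalling genes around gp130 differed by at least 0.58 on the log2 scale. Ptpn11, which encodes the phosphatase SHP2 that links gp130 to the ERK pathway, had 49.6 and 55.7 in the untreated GSK3β line against 90.2 and 93.9 in the untreated GSK3α line (log2 -0.80 ± 0.05, SE, adjusted p = 1.20e-10). Jak3 (-0.91), the cytokine-induced inhibitor gene Cish (-0.88), the stress-response gene Ier3 (-0.74) and the transcriptional repressor gene Bcl6 (-0.66) were lower in the GSK3β line too. The pluripotency gene Pramel7 (0.80) and Cntfr (0.65) were higher. By list, 6 of 10 kinase and adaptor genes were lower and 1 higher, and 6 of 14 inhibitors were lower and 3 higher. Of all tested genes in that comparison, 25.9% were lower and 22.3% higher. With libraries scaled to equal sums, 4023 genes were higher and 2805 lower between the untreated lines, against 3111 higher and 3612 lower as the authors scaled them, while the directions of the 4 genes of the core that passed stayed as given.

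Genes most like Socs3 and Lifr in pattern were sought among 10802 others with a mean of at least 5, by Pearson r of log2 values over the 8 libraries. For Socs3 the closest were Mesdc1 (r = 0.996), Vwf (0.992), Cluap1 (0.991), Rbm12b1 (0.990) and Commd5 (0.989). For Lifr, which varied little, they were Reck (r = 0.965), Traf6 (0.939), Eif5 (0.937), Tagap1 (0.932) and Ttbk2 (0.929). The Socs3 libraries fall into 2 clusters by line, so its r largely restates that separation. The 8 points share line, treatment and sequencing, and r was the highest of many compared, so it is a description alone.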

How the data were processed

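RNA of 8 libraries was measured by Illumina sequencing. Per the submitters' processing notes, the authors used TopHat2, Partek and the build mm10; versions, gene annotation, strand setting and filters are not given in the sources used here. The deposited values are a signal, that is scaled and mostly fractional estimates of reads per gene; in every library the upper quartile lay near 46.5. If the smallest value in a library is 1 read, 63.5 to 67.6% of the values below 20 reads fall within 0.1 of a whole number. No test for counts was therefore run.

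Genes whose mean was 1 or more were tested on log2(value + 1) with limma-trend (limma 3.58.1, R 4.3.3), with 1 mean per group and 4 residual degrees of freedom. p-values are two-sided and adjusted by Benjamini-Hochberg over all 13959 tested genes in each of 4 comparisons, with a threshold of 0.05. SE and 95% intervals are those of limma, which draws each gene's spread toward a trend with mean level over all tested genes. Folds are taken from the log2 changes and so include the added 1. The design had named a count test first, for raw counts. The scripts were tested on simulated data.

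The 7 genes, the lists and the tests were chosen with earlier results of these data known. The text names the 7 genes in every comparison. It also names list genes past the threshold in an inhibitor comparison or in the difference, Lif, and those past it between the untreated lines by at least 0.58 on the log2 scale. Some list genes are counted but not reported here by name. Altogether 18 alternative settings were run. Libraries with the same replicate number did not deviate together (r -0.04 to 0.03 between groups, across genes). The design had set the replicate block as an alternative, and the main results do not use it. Gene positions are from GENCODE M21 and promoters from RefSeq.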

Additional observations from a re-analysis of the deposited data

Results flagged for a closer look

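The change with 3MB-PP1 differed between the lines for 13 of the genes named, by limma's test of the difference itself (GSK3β line minus GSK3α line, log2 scale, adjusted over all tested genes). Of the pathway core these were Il6st at 0.66 (adjusted p = 9.89e-07) and Pim3 at -0.29 (adjusted p = 0.00193). Il6st moved up in both treated libraries of the GSK3β line and Pim3 moved down in both.

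Of the other genes, Tfcp2l1 differed by 0.71 (adjusted p = 7.03e-07), Klf4 by 0.53 (adjusted p = 6.16e-07), Klf5 by 0.57 (adjusted p = 4.96e-05) and Yes1 by 0.70 (adjusted p = 1.10e-06). Osm differed by 0.90 (adjusted p = 0.00833) at low levels, and Mcl1 by -0.22 (adjusted p = 0.00439). The remaining 5 passed and lost the call without single libraries. Il6ra had 0.41 (adjusted p = 0.0242), Jak3 0.32 (adjusted p = 0.0279), Myc -0.38 (adjusted p = 0.0208), Sall4 0.19 (adjusted p = 0.0163) and Cebpd -0.55 (adjusted p = 0.0275). Sall4, a pluripotency factor gene, passed in neither line alone, with 0.09 in the GSK3β line and -0.10 in the GSK3α line. Il6ra did not pass without 3MB-PP1 replicate 1 (adjusted p = 0.175) or untreated replicate 1 (0.0754) of the GSK3β line, or without 3MB-PP1 replicate 1 (0.116) or 2 (0.0550) or untreated replicate 1 (0.0569) of the GSK3α line. Jak3 did not pass without 3MB-PP1 replicate 1 (adjusted p = 0.191) or untreated replicate 1 (0.0854) of the GSK3β line, or without 3MB-PP1 replicate 1 (0.0586) or 2 (0.133) or untreated replicate 2 (0.116) of the GSK3α line. Myc did not pass without 3MB-PP1 replicate 1 of the GSK3β line (adjusted p = 0.0734), or without 3MB-PP1 replicate 2 (0.109) or untreated replicate 1 (0.0897) of the GSK3α line. Sall4 did not pass without 3MB-PP1 replicate 1 of the GSK3β line (adjusted p = 0.142), or without 3MB-PP1 replicate 1 (0.0622) or 2 (0.0682) or untreated replicate 2 (0.0583) of the GSK3α line. Cebpd failed to pass in each of the 8 fits that left out 1 library (adjusted p 0.0544 to 0.110). With a spread not tied to the mean level, Klf5 (adjusted p = 0.0614), Mcl1 (0.143), Il6ra (0.0888), Jak3 (0.197), Myc (0.181) and Sall4 (0.172) did not pass.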

How the results depend on the processing

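Over the alternatives, 484 values of the 7 genes stayed on their side of the threshold, 9 lost the call and 4 gained it, and no called value changed direction. The rise of Il6st (log2 0.56 to 0.67) and the fall of Pim3 (-0.42 to -0.37) in the GSK3β line, and the lower Socs3 (-0.72 to -0.46) in the untreated GSK3β line, passed in all 18. With limma without a mean trend the number of the 7 genes that passed was 0 in the GSK3α line (2 at an unadjusted p under 0.05) and 1 for the difference. All genes past the threshold then numbered 980 in the GSK3β line (2084 with the trend), 3 in the GSK3α line (123 with it) and 133 for the difference (911 with it), and the cause was not tested. Without single libraries the genes of the core that passed numbered 2 to 3 in the GSK3β line, 0 to 1 in the GSK3α line, 2 to 3 for the difference and 4 to 5 between the untreated lines. All genes numbered 864 to 2277 in the GSK3β line, 16 to 186 in the GSK3α line, 353 to 1339 for the difference and 5669 to 6554 between the untreated lines. A group left with 1 library was assumed to vary like the others.

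With the replicate block, 2 of the 7 genes passed in the GSK3β line (1997 of all genes), 1 in the GSK3α line (106), 2 for the difference (831) and 4 between the untreated lines (6648). Stat3 in the GSK3β line was the call of the core that it ended (adjusted p = 0.0516). The replicate numbers did not pair the libraries across all tested genes, which does not settle the case of Stat3 alone. For the 24 list genes that met the rule for naming, 44 values lost and 17 gained the call, and no called value changed direction. The counts over the lists were added after the data were seen.

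With 2 libraries a group the median SE over tested genes was 0.06 on the log2 scale for a change within a line and 0.09 for the difference. Changes of Socs3 with inhibitor of up to about 0.2 in size lay within its 95% intervals. A difference of the lines could not be computed from only the 4 libraries of 1 line.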
